A study of Mus musculus with 6 samples.

Results

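The genes described here are 10 regulators of ribosome production and of the translation of ribosomal protein mRNAs: Myc, Mycn, Mtor, Rptor, Rps6kb1, Larp1, Eif4ebp1, Eif4ebp2, Ubtf and Polr1a. They were taken by symbol from a table of 24980 gene symbols, in which each of the 10 has 1 row, and all 10 passed the filter on low values. The table holds 6 RNA-seq libraries of satellite cells, the stem cells of skeletal muscle, sorted by flow cytometry; the mice were adult, of the C57BL6/J strain, and the tissue was hindlimb muscle. Of these, 3 libraries carry the genotype label scERα WT and 3 the label scERα KO, and every mouse, WT or KO, had tamoxifen injections adding up to 10 mg so that Cre would be active. ERα, the product of Esr1, is the estrogen receptor targeted in the KO satellite cells. The Cre driver, the floxed allele, the sex of the mice, and whether the libraries stem from separate mice are not given in the sources used here. If they do not, p-values reflect the spread between these libraries alone, which may be technical.

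Myc and its paralog Mycn are transcription factors that pair with Max and bind E-box sequences, and Myc is known for raising the output of nearly every step of ribosome production. mTOR is the kinase of mTORC1, in which Raptor, the product of Rptor, presents substrates such as S6 kinase (Rps6kb1) and the 4E-BP proteins (Eif4ebp1 and Eif4ebp2), which hold back the cap-binding protein eIF4E until mTORC1 phosphorylates them. LARP1 is a further mTORC1 substrate that binds TOP mRNAs, the class with a terminal oligopyrimidine tract at the 5′ end to which the ribosomal protein mRNAs belong. UBF, the product of Ubtf, and Polr1a, the largest subunit of RNA polymerase I, act at the ribosomal DNA itself. Quiescent satellite cells make few ribosomes, and mTORC1 and Myc are known to come up when they activate. Most of this control acts on proteins, by phosphorylation, which transcript levels do not show.

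Because ERα is a DNA-binding receptor and Myc binds DNA too, the 250 bases before each RefSeq transcription start (GRCm38.p6) were searched on both strands for the E-box CACGTG, for the estrogen response element GGTCANNNTGACC and for its single arm GGTCA, which the full element contains. RefSeq windows were matched for 8 of the 10 genes, in 13 windows since Ubtf has 6 annotated starts. None of the 13 held the E-box or the full element, against 6.02% and 0.0639% of all 32851 windows of that length. The single arm was found in 3 of 13 windows, 1 each of Mtor, Polr1a and Ubtf, against 35.2% of all windows. These 3 windows are shown since they hold the letters nearest to a receptor site. They lie at chr4:148448332-148448581 (plus strand, Mtor), chr6:71908803-71909052 (plus strand, Polr1a) and chr11:102320863-102321112 (minus strand, the start of Ubtf farthest upstream), and capitals mark the arm, read as GGTCA or, on the other strand, as TGACC. A match is a description of letters, and no binding was measured.
Mtor: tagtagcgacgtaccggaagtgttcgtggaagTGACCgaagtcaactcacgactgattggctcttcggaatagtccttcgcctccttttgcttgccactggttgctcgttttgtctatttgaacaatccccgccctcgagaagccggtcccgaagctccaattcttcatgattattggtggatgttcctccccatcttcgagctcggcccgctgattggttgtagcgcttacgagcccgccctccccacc
Polr1a: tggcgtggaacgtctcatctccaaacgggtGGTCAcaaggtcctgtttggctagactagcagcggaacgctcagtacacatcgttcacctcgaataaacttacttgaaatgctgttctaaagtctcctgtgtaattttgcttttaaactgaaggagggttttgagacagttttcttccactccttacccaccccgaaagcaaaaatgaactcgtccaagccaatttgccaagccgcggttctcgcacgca
Ubtf: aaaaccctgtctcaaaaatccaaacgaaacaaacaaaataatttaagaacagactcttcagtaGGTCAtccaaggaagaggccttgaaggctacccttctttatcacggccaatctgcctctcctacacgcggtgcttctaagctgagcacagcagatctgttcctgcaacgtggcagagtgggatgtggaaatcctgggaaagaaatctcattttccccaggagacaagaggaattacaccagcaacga

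The values are TPM, a measure of transcript abundance scaled for transcript length and for the library total, so levels of different genes can be set side by side. The listed TPM summed to between 29.5% and 33.4% of the full scale, and the depth of the libraries is unknown since TPM does not keep it. Differences are KO minus WT on log2(TPM + 1) from limma, which understates the change of genes near 1 TPM. Among 8971 genes tested 3 were called higher and 2 lower at an adjusted p under 0.05. With libraries scaled by the median of ratios this was 1 and 1, with quantile normalization 1 and 0, and with protein-coding genes rescaled to a common total, where 8157 genes were tested, 38 and 48. Without KO library 3 it was 0 and 0, without KO library 1 it was 3 and 0, without KO library 2 it was 4 and 0, without WT library 1 it was 1 and 2, and without WT library 3 it was 3 and 1. The median difference of all genes was 0.12, and 0.003 after median-of-ratios scaling, where the genes at an unadjusted p under 0.05 went from 708 higher and 239 lower to 329 higher and 443 lower. Esr1 lay at 7.53, 6.96 and 6.94 TPM in WT and at 2.92, 3.69 and 3.87 TPM in KO, each KO library below each WT library (limma adjusted p = 0.0925). All 9 satellite cell markers, Pax7 and Vcam1 among them, were tested, and their summed level was 372 to 502 TPM in WT and 395 to 524 TPM in KO. Sdc4 was the largest part of that sum, at a mean of 220 TPM in WT and 185 TPM in KO. Of the 9 markers 7 had a difference above 0 and 2 below. In 2, Vcam1 and Cd34, each KO library lay above each WT library, as in 13.5% of all tested genes. Vcam1 was at 38.6 ± 6.54 TPM in WT and 57.2 ± 12.3 TPM in KO (SD, n = 3 each, limma adjusted p = 0.352). Markers of other cells were present at lower sums, with none at 0 in all libraries: 4 muscle fibre genes at 8.66 to 21.4 TPM in WT and 5.89 to 31.3 TPM in KO, 6 leukocyte genes at 2.06 to 7.88 and 3.60 to 6.30 TPM, and 6 genes of fibro-adipogenic progenitors at 37.8 to 136 and 59.2 to 92.3 TPM. Col3a1 was the largest part of the last sum, at a mean of 59.8 TPM in WT and 54.9 TPM in KO. It reached 117 TPM in WT library 3. Pdgfra and Lum of the same list failed the filter on low values, Pdgfra at a mean of 0.183 TPM in WT and 0.17 TPM in KO. In such bulk samples fewer cells of a type and less RNA per cell cannot be told apart.

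None of the 10 regulators differed between the groups beyond the spread of the libraries. By limma 0 of 10 were called at an adjusted p under 0.05, against 0.0557% of all tested genes (0.0334% higher, 0.0223% lower), and 0 of 10 had an unadjusted p under 0.05, against 10.6% of all. In 0 of 10 did the KO libraries all lie on one side of the WT libraries, against 16.6% of all tested genes, 13.5% with KO above and 3.07% with KO below. The difference was above 0 in 8 of 10, where 77.6% of all tested genes were above 0, and the median over the 10 was 0.08 against 0.12 for all. That count moved with the scaling. With libraries scaled by the median of ratios 4 of 10 were above 0 with a median of -0.04 (50.8% and 0.003 for all tested genes). Under quantile normalization 3 of 10 were above 0 with the same median (49.4% and -0.001 for all). Each of the 10 95% intervals excluded both a 2-fold higher and a 2-fold lower level than the WT mean, as those folds read on this scale. Scaling moved single genes across the line between overlap and none: Ubtf did not overlap after median-of-ratios scaling (where 13.7% of all genes did not), Polr1a after quantile normalization (14.0%), and Rptor and Ubtf with protein-coding genes rescaled (29.3% of the 8157). Without WT library 2 the groups were apart in Larp1, Rps6kb1, Rptor and Ubtf, 4 of 10 against 40.6% of all genes, and without KO library 1 in Eif4ebp2 and Ubtf, 2 of 10 against 33.6%.

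**Figure D1:**
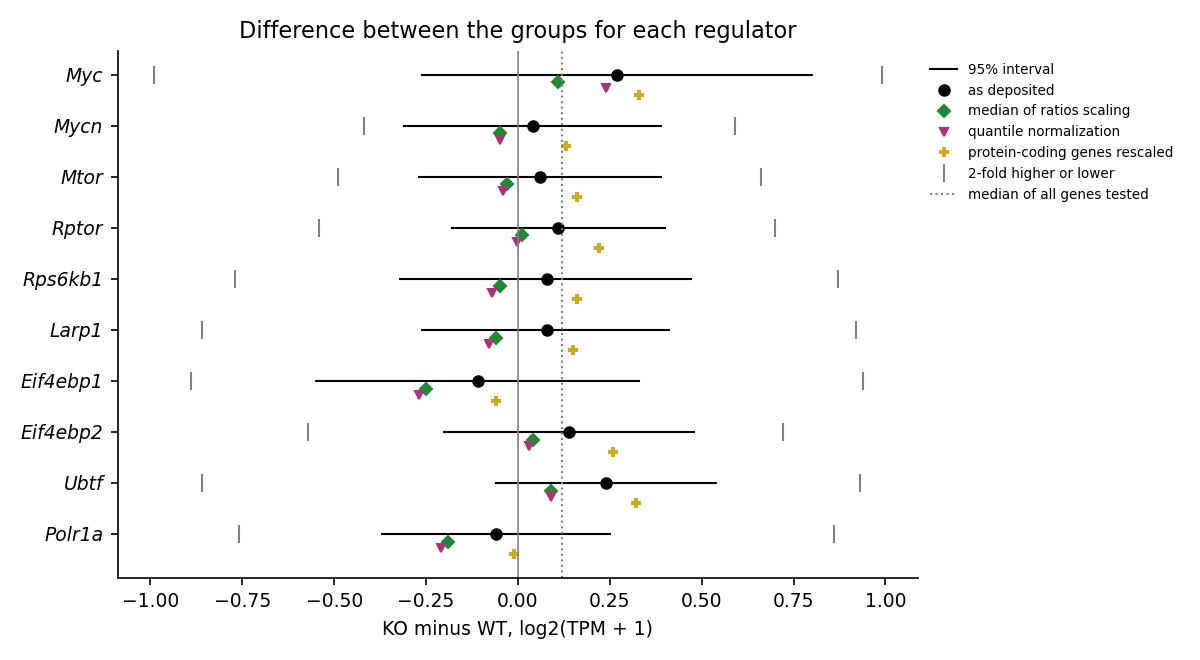
KO minus WT on log2(TPM + 1) for each of the 10 regulators (black points) with its 95% limma interval, beside the values under 3 other scalings (coloured marks). Grey ticks mark a 2-fold higher and lower level than the WT mean, the dotted line the median of all tested genes at 0.12, and each interval crosses 0 and stays inside its ticks.

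The levels spanned 2 orders of magnitude, with Myc far above the others. Over the 6 libraries Myc averaged 106 TPM, higher than 97.5% of the tested genes, and its mean was 9.92 times that of Eif4ebp1, the next. Eif4ebp1 (10.7 TPM), Ubtf (9.82 TPM) and Larp1 (9.04 TPM) followed with overlapping ranges, and each was above the next in 4 of 6 libraries. Rps6kb1 (4.85 TPM) and Polr1a (4.31 TPM) overlapped with each other and were clear of Larp1 above and of Eif4ebp2 below in all 6 libraries. Eif4ebp2 (2.0 TPM), Rptor (1.77 TPM), Mtor (1.44 TPM) and Mycn (1.05 TPM) closed the order, with overlapping ranges between neighbours. Rptor was nonetheless above Mtor in all 6 libraries. Mycn stood above only 4.20% of the tested genes.

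**Figure D2:**
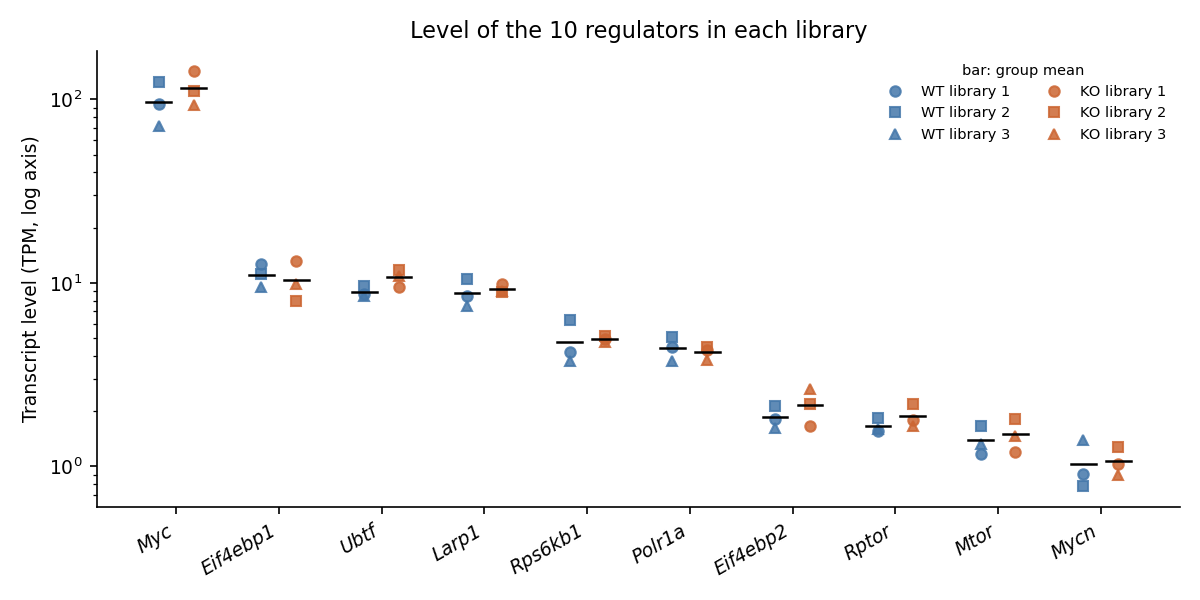
TPM (log axis) of the 10 regulators in each library, ordered by their mean, with blue for WT, orange for KO, a shape for each library number (libraries of the same number are not paired) and a bar for the group mean. Myc sits at 71.2 to 142 TPM and the other 9 at or under 13.2 TPM, and WT and KO points overlap in every gene.

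Myc, on chromosome 15 at 61985391 to 61990374 (plus strand; coordinates here and below are GENCODE vM21 on GRCm38), held 94.9, 124 and 71.2 TPM in the WT libraries and 142, 111 and 93.6 TPM in the KO libraries. The highest value was KO library 1 and the lowest WT library 3, but WT library 2 lay above KO libraries 2 and 3. The means were 96.8 ± 26.5 and 116 ± 24.5 TPM (SD, n = 3 each), a difference of 0.27 with a 95% interval from -0.26 to 0.80 (limma adjusted p = 0.690). The SD within each group was wider than the gap between the means. Since Myc is itself an immediate early gene that cell isolation can induce, the level of 12 immediate early and dissociation genes was set beside it: their sum was 2425, 2995 and 3114 TPM in WT and 2146, 3167 and 2610 TPM in KO. The heat shock gene Hspa1a was the largest single part of that sum and ran against Myc (Pearson r of -0.81 over the 6 libraries). Without it the other 11 genes summed to 1066, 1546 and 1143 TPM in WT and to 1158, 1529.5 and 1113 TPM in KO. Zfp36, which encodes the mRNA decay factor tristetraprolin, ran with Myc at an r of 0.88, followed by Junb at 0.62 and Dusp1 at 0.60. After median-of-ratios scaling these were 0.81, 0.44 and 0.43. Klf4 ran the other way at -0.62 (-0.31 after scaling), and Fosb, Nr4a1 and Atf3 lay at -0.08, -0.08 and -0.06. The median r of the 12 genes was 0.32, the same as that of all other tested genes (-0.06 against 0.10 after median-of-ratios scaling), and 0.87 without KO library 1 and WT library 3 (0.41 for all other tested genes). The part of this response in the Myc level was not tested.

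Mycn (chromosome 12, 12936093 to 12941914, minus strand) is the paralog best known from embryonic and neural progenitors. It lay at 0.91, 0.78 and 1.39 TPM in WT and at 1.03, 1.28 and 0.90 TPM in KO, so that both extremes were WT libraries (difference 0.04, 95% interval -0.31 to 0.39, limma adjusted p = 0.931). Myc exceeded Mycn by 51.3 to 159 times across the 6 libraries. Mycn was lowest in WT library 2, the library in which 8 of the other 9 regulators, all but Eif4ebp1, had their highest WT level. WT library 2 held the highest WT value of 67.4% of all tested genes, and after median-of-ratios scaling of 31.9% of them and of 4 of the 10 regulators.

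Mtor (chromosome 4, 148448611 to 148557683, plus strand), the kinase shared by mTORC1 and mTORC2, lay at 1.17, 1.65 and 1.33 TPM in WT and at 1.19, 1.82 and 1.47 TPM in KO. The groups overlapped almost fully, at 1.38 ± 0.244 and 1.49 ± 0.316 TPM (SD, n = 3 each; difference 0.06, 95% interval -0.27 to 0.39, limma adjusted p = 0.876). Rptor (chromosome 11, 119602905 to 119899576, plus strand), which makes the complex mTORC1, lay at 1.56, 1.83 and 1.59 TPM in WT and at 1.78, 2.20 and 1.66 TPM in KO. Its KO values were all above WT libraries 1 and 3, and WT library 2 lay among them (difference 0.11, 95% interval -0.18 to 0.40, limma adjusted p = 0.749). In both genes KO library 2 was the highest of the 6.

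Rps6kb1 (chromosome 11, 86498871 to 86544805, minus strand) encodes the S6 kinase that phosphorylates ribosomal protein S6. Its WT libraries were spread, at 4.21, 6.29 and 3.73 TPM, and its KO libraries close together, at 4.92, 5.16 and 4.78 TPM. The KO values fell between the WT values (difference 0.08, 95% interval -0.32 to 0.47, limma adjusted p = 0.873). Larp1 (chromosome 11, 58009064 to 58062034, plus strand), the TOP mRNA binder, had the same shape, with 8.45, 10.5 and 7.50 TPM in WT around 9.86, 8.95 and 9.01 TPM in KO (difference 0.08, 95% interval -0.26 to 0.41, limma adjusted p = 0.853). For both genes the KO mean was close to the WT mean, at 104% for Rps6kb1 and 105% for Larp1. The paralog Larp1b was the more abundant by TPM in all 6 libraries, with a ratio of Larp1 to Larp1b of 0.798 to 0.932.

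The 4E-BP genes Eif4ebp1 and Eif4ebp2 differed from each other in level in every library. Eif4ebp1 (plus strand of chromosome 8, 27260329 to 27276674) held 12.6, 11.1 and 9.47 TPM in WT and 13.2, 7.95 and 9.85 TPM in KO. Both the highest and the lowest value were KO libraries (difference -0.11, 95% interval -0.55 to 0.33, limma adjusted p = 0.834). Eif4ebp2 (chromosome 10, 61428491 to 61452661, minus strand) held 1.80, 2.12 and 1.62 TPM in WT and 1.66, 2.19 and 2.63 TPM in KO, with KO library 1 among the WT libraries (difference 0.14, 95% interval -0.20 to 0.48, limma adjusted p = 0.734). Eif4ebp1 was 3.63 to 7.92 times as abundant as Eif4ebp2. The lowest ratios were KO libraries 2 and 3, at 3.63 and 3.75, and the highest was KO library 1.

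Ubtf (chromosome 11, 102304560 to 102319742, minus strand) encodes UBF, which binds along the ribosomal DNA and keeps it open for RNA polymerase I. It held 8.68, 9.58 and 8.49 TPM in WT and 9.54, 11.7 and 10.9 TPM in KO. WT library 2 exceeded KO library 1 by a narrow margin and kept the groups from being apart. The means were 8.92 ± 0.582 and 10.7 ± 1.10 TPM (SD, n = 3 each), a difference of 0.24 with a 95% interval from -0.06 to 0.54. This was the smallest p of the 10, at 0.104 unadjusted and 0.561 adjusted by limma. With protein-coding genes rescaled it was 0.0284 unadjusted by limma, the 1 regulator under 0.05 in that setting, in which 21.4% of the 8157 genes tested were, and 0.193 adjusted. Polr1a (plus strand of chromosome 6, 71909053 to 71984935) held 4.45, 5.05 and 3.77 TPM in WT and 4.29, 4.48 and 3.80 TPM in KO. All 3 KO values lay within the WT range (difference -0.06, 95% interval -0.37 to 0.25, limma adjusted p = 0.875).

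The other genes of these pathways were examined in 8 lists, and by limma 0 genes of any list were called at an adjusted p under 0.05 (0.0557% of all tested genes were). For the counts below, the shares over all tested genes were 77.6% above 0 and 10.6% at an unadjusted limma p under 0.05. The groups were apart in 16.6% of all tested genes, 13.5% with KO above and 3.07% with KO below. The Myc network list, which holds Max, its other partners and related factors, had 10 tested of 12, 8 above 0, a median difference of 0.09 and 0 at an unadjusted p under 0.05. Max, the obligate partner, lay at 9.09 ± 1.30 TPM in WT and 10.2 ± 0.442 TPM in KO, and Zbtb17, which encodes Miz-1, at 1.14 ± 0.151 and 1.55 ± 0.0551 TPM, apart between the groups (SD, n = 3 each; limma adjusted p = 0.493). Mlxipl, the glucose-responsive factor ChREBP, was at 1.80 ± 0.741 and 1.22 ± 0.479 TPM, and Mxd4, an antagonist of Myc, at 4.98 ± 1.23 and 5.73 ± 0.959 TPM. After median-of-ratios scaling the list's median was -0.01, and by that scaling the medians of all 8 lists lay between -0.08 and 0.00.

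The other subunits of the mTOR complexes, 6 tested of 10 with 5 above 0, had a median of 0.12 and 0 at an unadjusted p under 0.05 by limma. Deptor, an inhibitory subunit, lay at 6.47, 6.06 and 5.49 TPM in WT and at 6.43, 8.50 and 7.93 TPM in KO, KO library 1 falling in the WT range (limma adjusted p = 0.503). Akt1s1, which encodes the mTORC1 inhibitor PRAS40, was at 2.20 ± 0.173 and 2.09 ± 0.190 TPM (SD, n = 3 each). The mTORC2 subunit genes Mapkap1 and Prr5 were at 2.03 ± 0.130 and 2.03 ± 0.355 TPM in WT and at 2.43 ± 0.553 and 2.45 ± 0.325 TPM in KO.

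Among the activators of mTORC1 (Rheb, the Rag GTPases, Ragulator, GATOR2 and the Akt arm), 19 of 24 were tested, 16 were above 0, the median was 0.13 and 1 had an unadjusted p under 0.05. That gene was Sec13, a subunit of GATOR2 and of the COPII coat, at 5.69, 4.13 and 5.17 TPM in WT and at 7.25, 5.92 and 7.38 TPM in KO, apart between the groups (difference 0.39, limma adjusted p = 0.393). Its GATOR2 partner Seh1l was at 5.24 ± 1.17 and 6.23 ± 0.0872 TPM, and the Ragulator genes Lamtor1 and Lamtor3 at 1.89 ± 0.107 and 3.72 ± 0.797 TPM in WT and 2.31 ± 0.601 and 4.41 ± 0.312 TPM in KO (SD, n = 3 each). Among the inhibitors (the TSC complex, GATOR1, KICSTOR, Castors, Sestrins and AMPK), 13 of 20 were tested, 9 were above 0, the median was 0.10 and 0 had an unadjusted p under 0.05 by limma. The leucine sensor Sesn2 had the smallest p, at 2.21, 2.65 and 2.56 TPM in WT and 4.62, 2.60 and 3.18 TPM in KO, where KO library 2 lay below WT library 2 (limma adjusted p = 0.532). Castor2, a paralog of the arginine sensor Castor1, was at 1.09 ± 0.261 and 1.44 ± 0.400 TPM and the KICSTOR subunit Itfg2 at 2.16 ± 0.753 and 1.49 ± 0.340 TPM (SD, n = 3 each).

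The translation outputs of mTORC1 and other binders of TOP mRNAs, 15 tested of 16, had 11 above 0 and a median of 0.11, with 2 at an unadjusted p under 0.05, both lower. These were Rps6, itself a ribosomal protein gene with a TOP mRNA, and Eif4b, an initiation factor phosphorylated by S6 kinase that is also encoded by a TOP mRNA. Rps6 lay at 349, 436 and 358 TPM in WT and at 291, 251 and 225 TPM in KO (difference -0.58, 95% interval -0.94 to -0.22, limma adjusted p = 0.230). Eif4b lay at 30.1, 40.8 and 34.5 TPM in WT and at 25.4, 26.7 and 26.7 TPM in KO (difference -0.40, 95% interval -0.73 to -0.06, limma adjusted p = 0.381). For both genes the highest KO value was under the lowest WT value, and neither passed the adjusted threshold. Eif4e, the target of the 4E-BPs, was at 7.71 ± 1.05 and 9.13 ± 1.03 TPM, and Poldip3, a partner of S6 kinase known as SKAR, at 7.56 ± 0.588 and 8.87 ± 0.490 TPM (SD, n = 3 each), the latter apart between the groups.

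The rest of the RNA polymerase I machinery, 19 tested of 20, had 17 above 0, a median of 0.08, 0 apart between the groups and 0 at an unadjusted p under 0.05 by limma. Polr1b, the other large catalytic subunit, was at 2.22 ± 0.766 TPM in WT and 2.92 ± 0.509 TPM in KO, and Twistnb, a subunit also called Polr1f, at 8.49 ± 0.961 and 9.83 ± 2.30 TPM. Taf1b of the promoter factor SL1 was at 1.08 ± 0.337 and 1.53 ± 0.710 TPM, and Polr2e, a subunit shared by the nuclear polymerases, at 2.99 ± 0.505 and 2.40 ± 0.416 TPM (SD, n = 3 each). Nucleolar ribosome assembly factors, 20 tested of 20, had 16 above 0, a median of 0.11 and 0 at an unadjusted p under 0.05 by limma. Tcof1, which encodes the nucleolar protein treacle, was at 3.51 ± 0.566 and 4.44 ± 0.670 TPM and apart between the groups (limma adjusted p = 0.567), Npm1 at 185 ± 29.3 and 150 ± 28.0 TPM, Nop56 at 33.1 ± 9.24 and 38.7 ± 9.62 TPM and Rrp9 at 9.87 ± 2.78 and 12.7 ± 3.78 TPM (SD, n = 3 each).

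The 8th list, metabolic and cell cycle genes that Myc is known to activate, had 9 tested of 10, 5 above 0 and a median of 0.04. Odc1, the rate-limiting enzyme of polyamine synthesis, was the 1 member at an unadjusted p under 0.05, with 62.0, 77.1 and 44.0 TPM in WT and 107, 110 and 85.3 TPM in KO (difference 0.74, 95% interval 0.25 to 1.24, limma adjusted p = 0.253). Every KO library was above every WT library. Shmt2, a mitochondrial enzyme of one-carbon metabolism, was apart in the other direction, at 2.05 ± 0.0981 and 1.54 ± 0.169 TPM, as was the lactate dehydrogenase gene Ldha, at 17.4 ± 1.26 and 15.6 ± 0.0954 TPM (SD, n = 3 each). Cdk4, a kinase of the G1 phase, overlapped at 4.13 ± 0.591 and 5.10 ± 0.968 TPM. Of 7 genes of dividing cells 5 were tested (Mki67, Top2a, Birc5, Mcm3 and Mcm6), with a median difference of 0.89, or 0.80 after median-of-ratios scaling. All 5 had a higher KO mean and an unadjusted limma p under 0.05, which 10.6% of all tested genes had in either direction. In 3 of the 5 the groups were apart, against 13.5% of all tested genes with KO above, and 0 passed the adjusted threshold. The 7 genes summed to 5.08, 5.59 and 9.36 TPM in WT and to 19.0, 8.65 and 40.8 TPM in KO. The sum was highest in KO library 3, where Myc was at its KO minimum, and next in KO library 1, where Myc was at its maximum. The 5 tested genes had a median Pearson r with Myc of 0.25 over the 6 libraries (0.32 for all other tested genes).

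**Figure D3:**
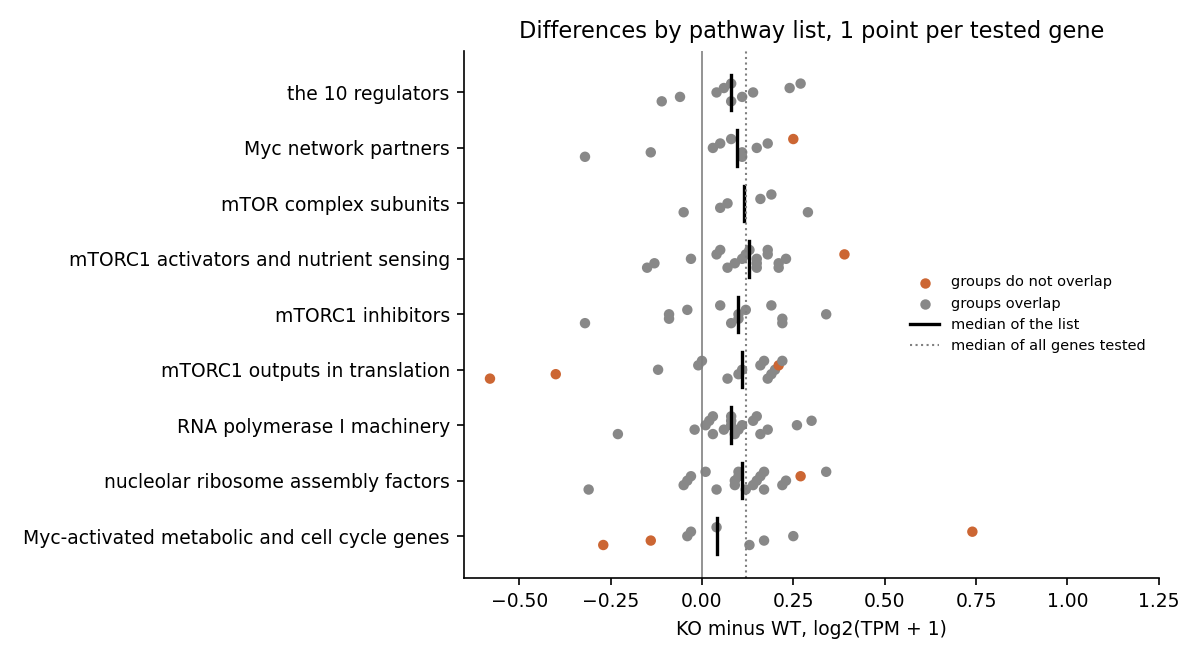
KO minus WT on log2(TPM + 1), 1 point per tested gene, for the 10 regulators and the 8 pathway lists, with black bars at list medians (0.04 to 0.13) and a dotted line at the median of all tested genes (0.12). Orange points are genes whose groups do not overlap (16.6% of all tested genes), of which the 10 regulators have 0. The points farthest from 0 are Odc1 on the right and Rps6 and Eif4b on the left.

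Across the 6 libraries, without regard to genotype, the level of Myc went with that of the nucleolar assembly factors. Myc was highest in KO library 1, then WT library 2, KO library 2, WT library 1, KO library 3 and WT library 3. The summed level of the 20 nucleolar factors was 692, 678, 564, 579, 469 and 442 TPM in the same libraries, and 4 of the factors (Ncl, Nop56, Rrp9 and Gnl3) followed the order of Myc exactly. As a description over 6 libraries, the Pearson r with Myc on log2(TPM + 1) had a median of 0.93 over the 20 factors and of 0.32 over the 8970 other tested genes. After median-of-ratios scaling these were 0.91 and 0.10, so the median of the factors was nearly as high once the libraries were put on a common scale. Without the libraries farthest from the median of Myc, KO library 1 and WT library 3, they were 0.76 and 0.41 over the remaining 4 libraries. The other pathway lists had lower medians over the 6 libraries. RNA polymerase I machinery had 0.71 (0.66 after median-of-ratios scaling), mTORC1 outputs 0.64 (0.57), mTOR complex subunits 0.58 (0.41) and mTORC1 activators 0.53 (0.45). The Myc network list had 0.33 (0.2). Genes that Myc is known to activate had 0.16 (0.04) and mTORC1 inhibitors 0.02 (-0.42), both below all other tested genes. Among the nucleolar factors Nop56, a core protein of box C/D small nucleolar ribonucleoproteins, had an r of 0.99. The lowest was the histone chaperone Npm1 at 0.43.

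The same held within each genotype at the extremes. WT library 3, with the lowest Myc of the WT libraries, had the lowest WT value of 20 of 20 factors, against 48.8% of all other tested genes. KO library 1, with the highest Myc of the KO libraries, had the highest KO value of 19 of 20, against 22.8%. After median-of-ratios scaling these counts were 19 of 20 (36.6% of the others) and 20 of 20 (45.2%). The full order of Myc within WT was kept by 18 of 20 factors in the deposited values but by 3 of 20 after that scaling (39.6% and 19.6% of the other genes), and that within KO by 15 of 20 and 12 of 20 (14.7% and 23.2%). Other values moved with Myc as well: after that scaling the tested markers of other cell types had a median r with Myc below 0, at -0.86 for muscle fibres (4 genes), -0.60 for endothelial cells (3), -0.58 for mural cells (3), -0.53 for fibro-adipogenic progenitors (4), -0.45 for Schwann cells (3) and -0.35 for leukocytes (2). The 9 satellite cell markers had a median r of 0.23 and ranged from -0.89 for Pax7 (-0.26 in the deposited values) to 0.79 for Myf5. In the deposited values these medians lay between -0.50 and 0.05 for the other cell types and at 0.33 for satellite cells. The part of these cells in the relation was not tested.

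The ribosomal proteins ran with Myc within KO but not over all 6 libraries. Over 76 cytosolic ribosomal protein genes, taken by symbol after the values were seen, the median r with Myc was -0.13 over 6 libraries and 0 of 76 had an r above 0.5, against 37.0% of the other tested genes. Their summed level was 23801, 29762 and 26180 TPM in WT and 19594, 17899 and 16517 TPM in KO, so each KO library lay below each WT library, and at a like Myc level WT library 1 (94.9 TPM of Myc) and KO library 3 (93.6 TPM) differed by 23801 against 16517 TPM. Within KO, library 1 had the highest value of 72 of 76 genes (22.8% of the other tested genes), or of 76 of 76 (45.2%) after median-of-ratios scaling, and 63 of 76 kept the full order of Myc (14.7%), or 33 of 76 (23.2%) after that scaling. Within WT, library 3, with the lowest Myc, had the lowest value of 4 of 76 genes (48.8%), or of 1 of 76 (36.6%) after scaling. Without KO library 1 and WT library 3 the median r was 0.57, and 0.92 after scaling (0.41 and 0.12 for the other tested genes), so the value over 6 libraries rests on those libraries. Among the 10 regulators, Larp1 had the highest r with Myc, 0.91, followed by Rps6kb1 at 0.77, while Mycn had an r of -0.47. The 5 protein-coding genes most like Myc in pattern, by Pearson r among 8027 over 6 libraries, were Eif4g2 (0.995), Eif4g1 (0.994), Xpot (0.994), Asb5 (0.993) and Tmem38b (0.993). They are the highest of 8027 values over few libraries and carry no test.

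**Figure D4:**
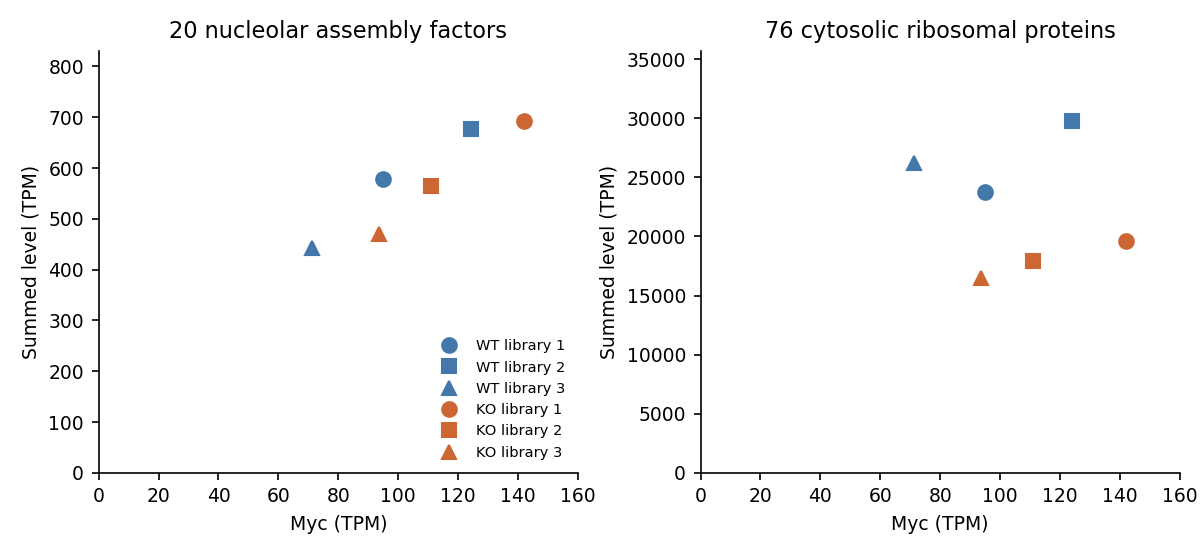
Summed TPM of 20 nucleolar assembly factors (left) and of 76 cytosolic ribosomal protein genes (right) against the TPM of Myc, 1 point per library, blue for WT and orange for KO. On the left the points of both groups lie along 1 rising band from 442 to 692 TPM, and on the right the 3 KO points (16517 to 19594 TPM) lie below the 3 WT points (23801 to 29762 TPM) over an overlapping range of Myc.

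Ratios of genes within a library do not change when a library is multiplied by 1 factor, though quantile normalization can change them. In the deposited TPM 10 such ratios, chosen after the values were seen, were compared by exact two-sided permutation tests. The smallest p of these tests with 3 against 3 libraries is 0.1. The 4E-BP transcripts Eif4ebp1 and Eif4ebp2 were summed and set against Eif4e, the factor that 4E-BPs hold back. This ratio came to 1.82, 1.53 and 1.69 in the WT libraries and 1.44, 1.15 and 1.50 in the KO libraries. Each KO library lay below each WT library (exact p = 0.1, adjusted over the 10 ratios 0.5), with 1.68 ± 0.146 and 1.36 ± 0.184 (SD, n = 3 each). The ratio of any tested gene to Eif4e was apart in this direction for 9.16% of genes. A further 4E-BP gene, Eif4ebp3, was not in the sum. It lay at 2.14, 2.19 and 1.62 TPM in WT and at 2.04, 2.71 and 2.32 TPM in KO. The gap between 1.53 in WT and 1.50 in KO was narrow, and the ratio with Eif4ebp3 included was not tested. The ratio of Polr1a to Polr1b, the paired catalytic subunits of RNA polymerase I, came to 2.04, 1.68 and 2.55 in the WT libraries and 1.24, 1.57 and 1.55 in the KO libraries. Each KO library again lay below each WT library (exact p = 0.1, adjusted 0.5), as in the ratio to Polr1b of 11.4% of genes. Neither passed a threshold of 0.05, which this design cannot reach.

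The other 8 ratios overlapped between the groups. Ubtf to Polr1a came to 1.95, 1.90 and 2.25 in the WT libraries and 2.22, 2.61 and 2.88 in the KO libraries, where WT library 3 lay just above KO library 1 (exact p = 0.2, adjusted 0.667). Rptor to Mtor ranged from 1.11 to 1.33 in WT and from 1.13 to 1.50 in KO. The mTORC2 subunit gene Rictor was 2.22 to 3.51 times as abundant as Mtor, and Mlst8, which encodes a subunit of both complexes, 0.231 to 0.415 times. Rps6kb1 was 2.36 to 3.44 times as abundant as its paralog Rps6kb2.

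**Figure D5:**
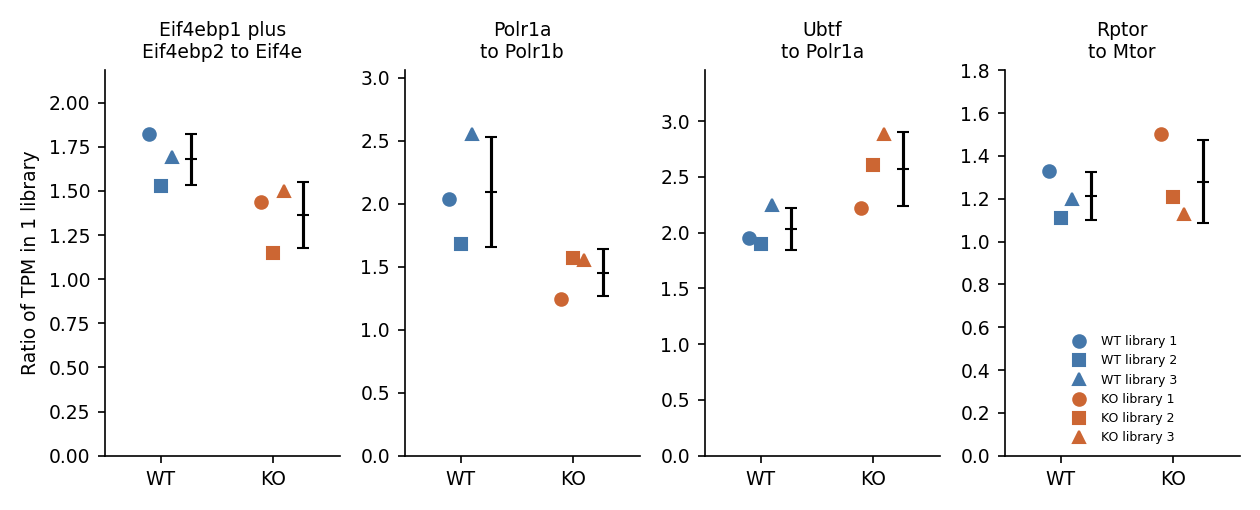
Ratio of TPM within each library for 4 pairs of genes or gene sums, with blue points for WT, orange for KO, and black marks for the mean and SD of 3 libraries. The ratios of Eif4ebp1 plus Eif4ebp2 to Eif4e (1.53 to 1.82 against 1.15 to 1.50) do not overlap between the groups. Those of Polr1a to Polr1b (1.68 to 2.55 against 1.24 to 1.57) do not overlap either, and the other 2 do.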

How the data were processed

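Total RNA of sorted satellite cells was extracted with a Qiagen RNeasy Plus kit and sequenced as Illumina libraries, per the labels' protocols. In the submitters' processing notes kallisto, Trimmomatic 0.33, CASAVA and FastQC are listed, with mm10 and GRCm38 as builds, without role or order. The authors deposited TPM per gene symbol; the sources used here do not give the annotation, the strandedness or how transcripts were summed. The listed symbols sum to 295306 to 334382 TPM per library, so a change in the unlisted remainder moves all values of a library together.

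Genes at 1 TPM or more in at least 3 of 6 libraries (8971) entered a two-sided limma test (version 3.58.1, R 4.3.3; eBayes with trend) of log2(TPM + 1), and p-values were adjusted over all of them by Benjamini-Hochberg, with a threshold of 0.05. The same genes were kept under the other settings, except the filters and the rescaling of protein-coding genes, which tested the 8157 of them that are protein-coding by RefSeq. Groups follow the genotype labels, and library numbers pair nothing. Single ratios were compared by exact permutation (scipy 1.17.1). Of each list the 4 tested genes with the smallest p are named, except 1 that is not reported here. The members, lists, the naming rule and the tests were chosen with earlier results of these data known; the ratios, the ribosomal protein genes, the orders within groups and the r of the lists with Myc were chosen after the values were seen. The fit was tested on simulated data with independent noise for each gene. No shift shared by all genes of a library was simulated, so that test does not cover such shifts. Promoter windows are RefSeq's on GRCm38.p6, and gene positions GENCODE vM21. No promoter window was matched for Myc and Eif4ebp1.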

Additional observations from a re-analysis of the deposited data

How the results depend on the processing

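No regulator was called under any of the 15 other settings (pseudocounts of 0.1 and 5, no filter, a mean TPM of 1 or more, 3 scalings, 2 other priors, and each library left out). Of 150 recomputed differences of the 10 genes 133 kept their direction and 17 changed sign, all of them uncalled. Under median-of-ratios scaling these were Mycn (-0.05), Mtor (-0.03), Rps6kb1 (-0.05) and Larp1 (-0.06). With quantile normalization they were Mycn (-0.05), Mtor (-0.04), Rptor (-0.0016), Rps6kb1 (-0.07) and Larp1 (-0.08). Leaving out 1 library gave -0.05 to 0.16 for Mycn, -0.03 to 0.15 for Mtor, -0.05 to 0.26 for Rps6kb1, -0.02 to 0.20 for Larp1, -0.29 to 0.05 for Eif4ebp1 and -0.15 to 0.02 for Polr1a. Myc (0.07 to 0.46), Eif4ebp2 (0.03 to 0.26) and Ubtf (0.09 to 0.32) were above 0 in all 15 settings. The cause of these changes was not tested.

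Over the 10 genes, median-of-ratios scaling gave 4 above 0, a median of -0.04 and 1 with groups apart, quantile normalization 3, -0.04 and 1, and rescaled protein-coding genes 2 apart and 1 at an unadjusted p under 0.05; leaving out a library gave 0 to 4 apart, 6 to 8 above 0 and medians of 0.04 to 0.18. Of all genes 0 were called higher and 2 lower by limma at a pseudocount of 0.1, 2 and 0 at 5, 0 and 0 with no filter or with a mean TPM of 1 or more, 1 and 1 with the median of ratios, 1 and 0 with quantile normalization, 38 and 48 with rescaled protein-coding genes, 17 and 16 with a robust prior, and 0 to 4 and 0 to 2 with a library left out. No paired analysis was possible because the labels give the libraries no shared numbers. TPM keeps no depth, so the counting error of genes near 1 TPM, such as Mycn and Mtor, is unknown.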
